A study of Mus musculus with 24 samples.

Results

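Long fragile-site genes were followed here in mouse cells by ChIP-seq, the sequencing of DNA bound to immunoprecipitated chromatin proteins. The antibodies were against H2AX, a histone variant, and against phosphorylated H2AX, labelled gH2AX (γH2AX). The genes were Fhit, Wwox, Lrp1b, Macrod2, Csmd1, Auts2 and Immp2l, chosen by name from the 49554 genes of the RefSeq annotation. Each was represented by all 1 Mb bins of build mm10 that overlap its gene body, which gave 17 of the 2645 bins in the deposited count tables. The cells, called TTF in the labels without an explanation, were female and of a C57BL6/CAST hybrid strain. One table held gH2AX, H2AX and input DNA of SIRT7-KO and of wild-type (WT) cells, with 2 libraries per group. The other held gH2AX and H2AX of KO clones carrying SIRT7-WT, of clones named HY, and of the KO clones alone, again 2 libraries per group, and WT cells once more. Each clone type rests on 2 clones, and the labels give the clones carrying SIRT7-WT the same clone numbers as the KO clones. The meaning of HY is not given in the labels. According to the labels all 24 samples had received X-rays at 5 Gy and were collected after 30 minutes, so no labelled group is unirradiated.

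Common fragile sites are chromosome regions that form gaps and breaks in metaphase when DNA replication is slowed. Many of them lie in very long genes that replicate late, contain few replication origins and are deleted repeatedly in tumours. Phosphorylation of H2AX spreads along the chromatin around a DNA double-strand break, so gH2AX is used as a mark of breaks, whereas total H2AX shows where the histone variant is available. SIRT7 is a chromatin deacylase with roles in ribosomal DNA, gene repression and DNA repair.

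Among the 7 genes, Fhit and Wwox encode a nucleotide hydrolase and an oxidoreductase that are regarded as tumour suppressors in human cells. Fhit spans chromosome 14, 9550092 to 11162061, over 3 bins, and Wwox spans chromosome 8, 114439635 to 115352712, over 2 bins. Lrp1b and Csmd1 encode large membrane proteins, an endocytic receptor of the LDL receptor family and a regulator of complement. Lrp1b lies at chromosome 2, 40595290 to 42653598, and Csmd1 at chromosome 8, 15892538 to 17535385, each in 3 bins. Macrod2, an ADP-ribose hydrolase gene, lies at chromosome 2, 140395303 to 142392966, in 3 bins. Auts2, a transcription regulator gene best known from neurons, lies at chromosome 5, 131437333 to 132543220, in 2 bins. Immp2l, which encodes a peptidase subunit of the mitochondrial inner membrane, lies at chromosome 12, 41024061 to 41955588, in 1 bin. Bins are numbered below in the order of their coordinates.

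A 1 Mb bin is not the gene alone. The gene body fills 100% of Fhit bin 2, Lrp1b bin 2, Macrod2 bin 2 and Csmd1 bin 2, but only 10.7% of Csmd1 bin 1 (15000001 to 16000000) and 16.2% of Fhit bin 3 (11000001 to 12000000). Csmd1 bin 1 also holds Arhgef10, Kbtbd11 and Myom2, and Fhit bin 3 also holds Ptprg. Wwox bin 1 also holds Clec3a, Nudt7 and Vat1l, Macrod2 bin 1 holds 5 further protein-coding genes, and Auts2 bin 1 holds Galnt17. The 3 Lrp1b bins hold no other protein-coding gene.

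Libraries of the first table held 170013624 to 268180310 reads and the clone libraries 70349148 to 155364952. The least covered bin of the 7 genes held 42992 reads in any library of the first table and 17180 in the clones, so counting error is small against the spread between libraries. All 17 bins passed the filter of a mean count of 100, as did 2582 bins in all. The 1 Mb bin that holds Sirt7 (chromosome 11, 120000001 to 121000000) carried 218 to 282 CPM (read counts scaled to a common library size) over the 6 KO libraries of the first table and 406 to 572 CPM over the 6 WT libraries. In the second table it carried 1100 to 9630 CPM in the 4 libraries of KO clones with SIRT7-WT and 576 to 1330 CPM in those of HY clones, against 399 to 932 CPM in those of KO clones. Every library of KO clones with SIRT7-WT lay above every library of KO clones, and the KO clones overlapped WT of the same table (418 to 684 CPM). The 2 columns of each KO and WT group are named Xray and NT, although the labels state X-rays for all, and they are called here the Xray-named and NT-named libraries and treated as replicates. If the NT-named libraries came from cells that were not irradiated, which the labels do not say, each KO and WT group would mix irradiated and unirradiated cells, and every ratio within it would be an average over both. WT replicate 2 of the second table held the same counts as the NT-named library in 2645 of 2645 bins of each assay. WT replicate 1 was distinct and is called the third WT library. The labels list 2 WT samples per assay, fewer than these distinct WT libraries. If replicate numbers are followed, WT replicates 1 and 2 are those samples. The Xray-named WT library then matches no labelled sample.

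The first question was how much H2AX and gH2AX the fragile-site genes carried relative to input. The genes did not share one level. Both Wwox bins, Auts2 bin 1 and Fhit bin 3 were above input in both marks, and Csmd1 bin 1 in gH2AX. Macrod2 bins 1 and 2 and Immp2l were below input in both marks, and the 3 Lrp1b bins in gH2AX. In KO cells, gH2AX was above input in 5 and below it in 7 of the 17 bins. Over all 2582 bins 61.5% were called in this comparison, 25.3% above and 36.3% below. In WT cells 5 bins were above and 6 below (69.9% of all bins called, 34.6% above and 35.3% below). A call here means an adjusted p under 0.05 in edgeR's quasi-likelihood test with Benjamini-Hochberg adjustment over all bins, and every adjusted p below comes from that test. The members' median log2 ratio was -0.028 in KO and -0.033 in WT, against -0.022 and 0.0004 over all bins. The sign of these medians rested on single libraries, since they were 0.043 in KO and 0.010 in WT without the Xray-named gH2AX library, and -0.084 and -0.063 without the NT-named one. Their share of calls was thus close to that of the genome.

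For total H2AX over input, 5 bins were above and 3 below in KO cells (49.6% of all bins called, 21.4% above and 28.2% below), and 7 above and 3 below in WT cells (56.4%, 30.5% above and 25.9% below). The medians over the 17 bins were 0.045 in KO and 0.075 in WT, against -0.026 and -0.0004 over all bins. With counts scaled to the autosomal total, the WT split was 5 above and 5 below.

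Lrp1b bin 2, which lies wholly inside the gene, held 332 and 370 CPM of gH2AX and 400 and 401 CPM of input in KO cells (Xray-named, then NT-named). In WT cells it held 333 and 368 CPM of gH2AX against 412 and 418 CPM of input. Every gH2AX library lay below every input library, and the Xray-named ones lay lowest. The log2 ratio of gH2AX over input was -0.19 in KO (SE 0.0553, adjusted p = 0.0158) and -0.24 in WT (SE 0.0552, adjusted p = 0.00434). The neighbouring Lrp1b bins gave -0.23 and -0.19 in KO and -0.26 and -0.25 in WT, all called. Of the other 174 bins of chromosome 2, 19% lay below Lrp1b bin 2 in KO and 9.77% in WT. H2AX over input was -0.072 to -0.10 in KO and -0.099 to -0.12 in WT over the 3 bins, none past the threshold. The third WT library gave -0.51, -0.51 and -0.55 for gH2AX over input and -0.40, -0.43 and -0.47 for H2AX over input, as single values with no test.

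Macrod2 showed its lowest values in the bin that the gene fills. Macrod2 bin 2 held 365 and 387 CPM of gH2AX and 373 and 379 CPM of H2AX, against 439 and 435 CPM of input, in KO cells. In WT cells it held 392 and 415 CPM of gH2AX and 391 and 402 CPM of H2AX, against 459 and 462 CPM of input. Both marks lay below input in every library. The log2 ratio was -0.22 for gH2AX (SE 0.0354, adjusted p = 0.002) and -0.22 for H2AX (SE 0.0354, adjusted p = 0.00132) in KO, and -0.19 and -0.22 in WT, both called. Bin 1, with its 5 other genes, was also called below input in both marks, at -0.17 in KO and -0.12 in WT for each. Bin 3 was called for gH2AX in KO only, at -0.079, and had -0.048 in WT, and the difference of that ratio between KO and WT was -0.031 (SE 0.0344, adjusted p = 0.937).

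Immp2l held 344 and 347 CPM of gH2AX, 341 and 342 CPM of H2AX and 374 and 373 CPM of input in KO cells. WT cells had 350 and 356 CPM of gH2AX, 343 and 349 CPM of H2AX and 377 and 381 CPM of input. Both marks were lower than input in each library, with log2 ratios of -0.11 for gH2AX and -0.13 for H2AX in KO and -0.10 and -0.13 in WT, all 4 called. Its standard error, 0.0218, was the smallest among the 17 bins.

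Wwox lay on the other side. Wwox bin 1 held 358 and 350 CPM of gH2AX and 387 and 376 CPM of H2AX against 325 and 333 CPM of input in KO cells. In WT cells the values were 327 and 322 CPM of gH2AX and 358 and 335 CPM of H2AX against 291 and 286 CPM of input. H2AX exceeded input by 0.21 in KO (SE 0.0339, adjusted p = 0.00113) and by 0.26 in WT (SE 0.0339, adjusted p = 0.000347), and gH2AX by 0.11 and 0.17. Wwox bin 2 was raised in both marks by 0.087 to 0.14 over the 2 genotypes. Both Wwox bins passed the threshold in all 4 tests.

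Auts2 resembled Wwox in H2AX. Its bins were above input by 0.15 and 0.16 in KO and by 0.21 and 0.24 in WT, and all 4 were called. In gH2AX, bin 1 was called at 0.11 in KO and 0.14 in WT. Bin 2 was not called for gH2AX, at 0.034 in KO (adjusted p = 0.502) and 0.058 in WT (adjusted p = 0.253). Its Xray-named library pairs had -0.022 in KO and -0.0071 in WT, and its NT-named pairs 0.090 in KO and 0.12 in WT.

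Fhit was close to input in the bins that it fills most. Bins 1 and 2 had gH2AX over input of -0.005 and -0.028 in KO and of -0.0073 and -0.033 in WT, with none called. Bin 3, of which Fhit takes up 16.2%, was called at 0.087 and 0.091 for gH2AX and at 0.12 and 0.15 for H2AX. In H2AX, Fhit bin 1 was also called in WT at 0.082 and had 0.011 in KO, and the difference between genotypes was -0.071 (SE 0.039, adjusted p = 1).

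Csmd1 bin 1, of which only a small share is Csmd1, had the highest ratio of gH2AX over input among the 17 bins in KO and in WT. It held 410 and 504 CPM of gH2AX, 347 and 347 CPM of H2AX and 340 and 333 CPM of input in KO cells. In WT cells it held 353 and 401 CPM of gH2AX, 327 and 316 CPM of H2AX and 305 and 295 CPM of input. Every gH2AX library lay above every H2AX and input library of the same genotype. The ratio over input was 0.44 in KO (SE 0.0844, adjusted p = 0.00356) and 0.33 in WT (SE 0.0842, adjusted p = 0.00703), and 100% and 92.6% of the other 122 bins of chromosome 8 lay below it. The third WT library gave 0.48. Bins 2 and 3, inside or mostly inside the gene, had gH2AX over input between -0.065 and 0.013 and were not called, and H2AX of bin 2 was called in WT at 0.11.

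**Figure D1:**
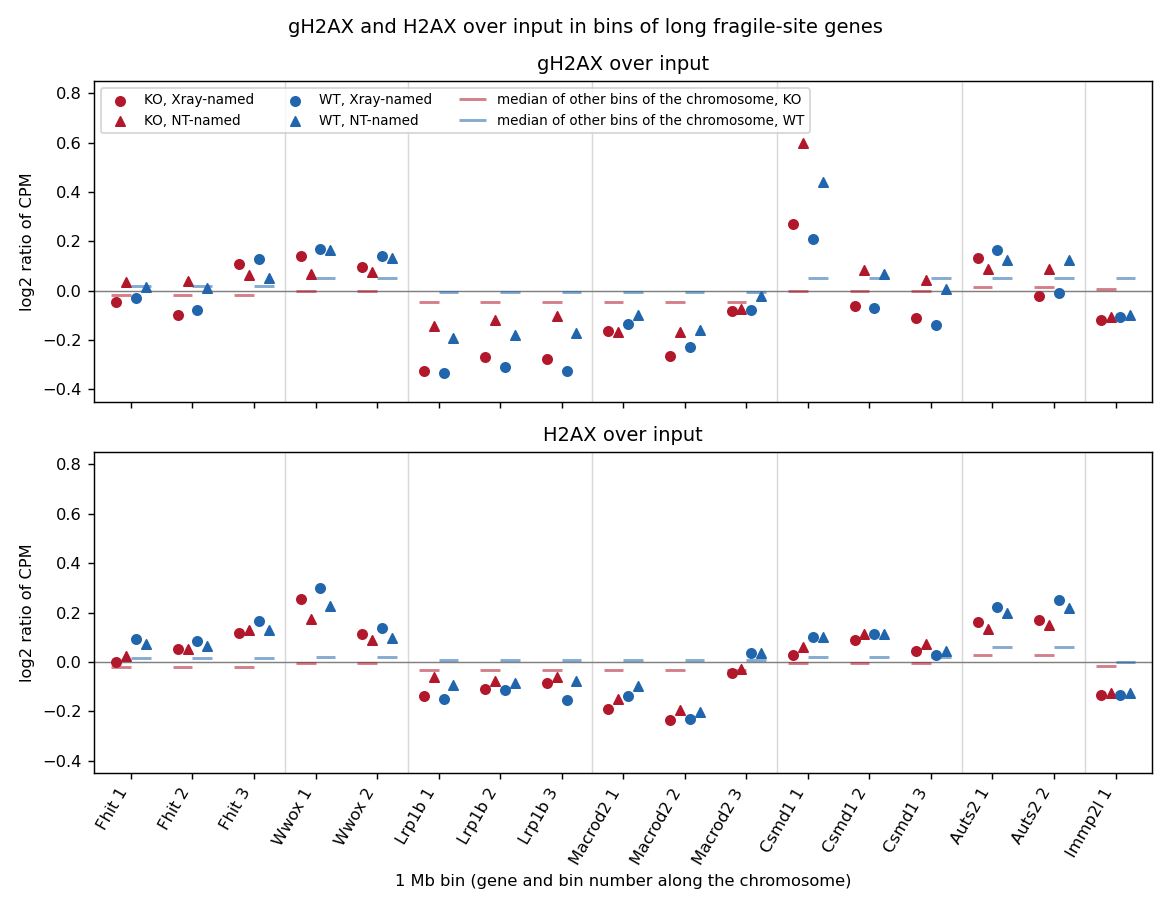
Log2 ratio of CPM of gH2AX (upper panel) and H2AX (lower panel) over input in each of the 17 bins, for the KO and WT libraries by column name, with the median of the other bins of the same chromosome as short lines. The 3 Lrp1b bins lie between -0.10 and -0.33 in gH2AX, and Csmd1 bin 1 reaches 0.60 in the NT-named KO pair.

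The calls over input in KO were sensitive to single libraries. For gH2AX in KO they numbered 5 without the Xray-named gH2AX library and 5 without either input library, and 6 with a spread estimated from the 2 compared groups alone. For H2AX in KO they numbered 5 without the Xray-named H2AX or the NT-named input library and 15 with the spread of the 2 groups alone. When each library was scaled to its own chromosome medians, gH2AX in KO was above input in 5 and below in 4 bins.

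Other long genes gave a background for these values. The 39 bins of 16 further genes described as fragile sites had a median gH2AX over input of -0.060 in KO and -0.067 in WT, with 5 above and 16 below in KO and 5 above and 21 below in WT. The 336 bins of 205 other protein-coding genes of at least 500 kb had medians of -0.076 and -0.062, with 41 above and 150 below in KO and 68 and 150 in WT. The 744 bins with at most 2 protein-coding genes, which include many of these, had medians of -0.15 and -0.17, with 36 above and 510 below in KO and 40 and 542 in WT. The 17 bins were left out of that list, although all but Wwox bin 1, Macrod2 bin 1 and Csmd1 bin 1 would qualify. Among the further long genes the largest called ratios were those of Cntnap5b (0.40) and Lrrc4c (-0.36) in KO, and Cdh13 (0.38) and Grik2 (-0.34) in WT.

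The next comparison asked how gH2AX stood relative to total H2AX. In KO and WT cells the ratio was below 0 in most bins, and how many passed the threshold differed between tools. In KO 1 of 17 bins was called higher and none lower (3.8% of all bins called, 3.41% higher and 0.387% lower). In WT 1 was called lower and none higher (12.2% of all bins called, 8.64% higher and 3.6% lower). DESeq2 called 3 of the 17 in KO, 1 higher and 2 lower, and 9 in WT, 1 higher and 8 lower. The shares of all bins above are those of edgeR and are not a background for these DESeq2 counts. The median was -0.044 in KO and -0.090 in WT, against -0.003 and -0.0028 over all bins. In KO 13 of the 17 values were below 0 and in WT 12, against 1339 and 1323 of all 2582 bins. The 744 gene-poor bins had medians of -0.046 and -0.085, close to those of the fragile-site genes. In a test without the adjustment for many bins, p was under 0.05 for 4 members in KO and 11 in WT, against 499 and 903 of all 2582 bins.

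The bin called in KO was Csmd1 bin 1, at 0.40 (SE 0.0843, adjusted p = 0.0406), with 0.23 in WT (SE 0.0843, adjusted p = 0.101). The ratio per library pair was 0.24 and 0.54 in KO and 0.11 and 0.34 in WT (Xray-named, then NT-named), above 0 in all 4 pairs, and 0.26 in the third WT library. In the third WT library and in the NT-named WT library, 57.8% and 55.4% of gH2AX reads of this bin were assigned to a parental genome, against 73.3% and 70.7% of H2AX reads and 65.6% and 70.4% of input reads. No such gap appeared in Csmd1 bin 2, where the shares were 75.7% and 74.8% for gH2AX against 77.9% and 76.3% for H2AX and 71.1% and 76% for input. The part of this difference in the ratio was not tested.

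The bin called in WT was Auts2 bin 2, at -0.18 (SE 0.0435, adjusted p = 0.0328), with -0.12 in KO (SE 0.0436, adjusted p = 0.162). It held 280 and 294 CPM of gH2AX against 320 and 306 CPM of H2AX in KO, and 334 and 349 CPM against 399 and 373 CPM in WT. The 3 Lrp1b bins had -0.10 to -0.13 in KO and -0.13 to -0.14 in WT and were below 0 in each of the 4 pairs, but were not called. Of the other 174 bins of chromosome 2, 2.87% to 9.77% lay below them. Macrod2 bins 1 and 2 and Immp2l were between 0.0001 and 0.028, and none was called. Among the called bins of the further long genes, the largest ratios in KO were those of Dlg2 at -0.34 and Cntnap2 at 0.22, and in WT those of Dlg2 at -0.31 and Fgf14 at 0.26. The 39 bins of the 16 further fragile-site genes gave medians of -0.0079 in KO and -0.031 in WT, with 1 higher and 1 lower in KO and 2 higher and 1 lower in WT.

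Neither call was left when libraries were scaled to their own chromosome medians. Without the NT-named gH2AX library 7 bins were called in KO and 9 in WT, and without either H2AX library in KO or without the Xray-named gH2AX or H2AX library in WT none was, while 2 were called in WT without the NT-named H2AX library.

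The comparison of KO with WT asked whether loss of SIRT7 altered the marks at these genes. For the genes on chromosomes 5 and 8 the differences had the direction of the chromosome. Outside Csmd1 bin 1 they were of like size there in gH2AX, H2AX and input. Against the other bins of its chromosome, 3 of the 17 bins lay under the lower quartile in gH2AX, 11 in H2AX and 9 in input. Over the upper quartile lay 1 bin in gH2AX, 0 in H2AX and 0 in input. The Wwox and Csmd1 bins on chromosome 8 were higher in KO, the Auts2 bins on chromosome 5 were lower, and Fhit, Lrp1b, Macrod2 and Immp2l differed little. In gH2AX 5 bins were called higher and 3 lower (60.1% of all bins called, 30.1% higher and 30.1% lower). In H2AX 4 were higher and 4 lower (63.3%, 30.6% higher and 32.6% lower), and in input 4 higher and 2 lower (57.5%, 32.1% higher and 25.4% lower). Scaled to the autosomal total, the counts were 5 higher and 5 lower in gH2AX, and 4 higher and 6 lower in both H2AX and input.

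Auts2 bin 1 held 341 and 329 CPM of gH2AX in KO against 405 and 388 in WT, 347 and 340 CPM of H2AX against 422 and 408, and 311 and 309 CPM of input against 361 and 356. The KO and WT libraries did not overlap in any assay. The log2 difference was -0.24 (SE 0.0308, adjusted p = 0.000119) for gH2AX. For H2AX it was -0.27 (adjusted p = 6.32e-05), and for input -0.21 (adjusted p = 0.00029). The median of the other bins of chromosome 5 was -0.23, -0.23 and -0.20 in the same assays. Auts2 bin 2 gave -0.25, -0.30 and -0.23.

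Csmd1 bin 2 held 308 and 330 CPM of gH2AX in KO against 273 and 289 in WT, 342 and 337 CPM of H2AX against 309 and 298, and 321 and 312 CPM of input against 286 and 276. Again the KO libraries lay above the WT libraries in each assay. The gH2AX difference was 0.18 (SE 0.0406, adjusted p = 0.00316). Those of H2AX and input were 0.16 and 0.17, and the chromosome 8 medians of the 3 assays were 0.17, 0.18 and 0.21. Csmd1 bin 3 was also called in all 3 assays, as were Wwox bin 1 at 0.13, 0.14 and 0.19 and Wwox bin 2 at 0.11, 0.14 and 0.16. Csmd1 bin 1 was called in gH2AX at 0.28 (SE 0.0842, adjusted p = 0.0159), above 100% of the other chromosome 8 bins, and had 0.11 in H2AX and 0.17 in input, not called. Macrod2 bin 2 was the remaining call in gH2AX, at -0.10 (SE 0.0354, adjusted p = 0.0324). In H2AX the remaining calls were Fhit bin 1 at -0.11 and Macrod2 bin 3 at -0.088.

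When each library was scaled to the other bins of the same chromosome, in a fit with no term for the column name, none of the 17 bins was called in gH2AX, H2AX or input by edgeR (6%, 5.77% and 7.51% of all bins called). Of all bins, 2.05% were higher and 3.95% lower in gH2AX, 2.17% and 3.6% in H2AX, and 3.1% and 4.42% in input. An unadjusted p was under 0.05 in 1, 2 and 2 of the 17, and DESeq2 called 0, 0 and 2. The values had medians of -0.0067 in gH2AX, -0.037 in H2AX and -0.041 in input. All 17 were below 0 in input, between -0.10 and -0.0025, and 16 of 17 in H2AX, whereas gH2AX had 9 below and 8 above. For input with the spread of the 2 groups alone, 6 bins were called, all lower, with no share of all bins given. With a term for the column name in each assay, some of the 17 bins were called in gH2AX, H2AX and input. Those counts are given in the last section. Over all 2582 bins the medians were 0.002, -0.0016 and 0.0006 in gH2AX, H2AX and input, with 1229, 1342 and 1277 bins below 0. The 39 bins of the further fragile-site genes had medians of 0.0086, 0.0061 and 0.0006 in the same assays. The 744 gene-poor bins had medians of 0.022, -0.0059 and -0.022, with 513 of them below 0 in input.

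The ratio of gH2AX over H2AX did not differ between KO and WT past the threshold in any of the 17 bins (edgeR, 0.155% of all bins called). No member had an unadjusted p under 0.05, and DESeq2 called 0. Csmd1 bin 1 had the largest difference, 0.17 (SE 0.119, adjusted p = 0.997), and Lrp1b bin 2 had 0.046 (SE 0.0781). The differences of gH2AX over input and of H2AX over input likewise gave 0 calls with edgeR (0.0387% and 0% of all bins called) and DESeq2, and 0 members with an unadjusted p under 0.05. Standard errors of these differences were 0.0309 to 0.119, in a fit with no term for the column name. Changes of a few hundredths were not detectable in that fit. Its common estimate of spread was 3.23%, against 1.06% in the fit by column name, which has such a term in each assay.

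**Figure D2:**
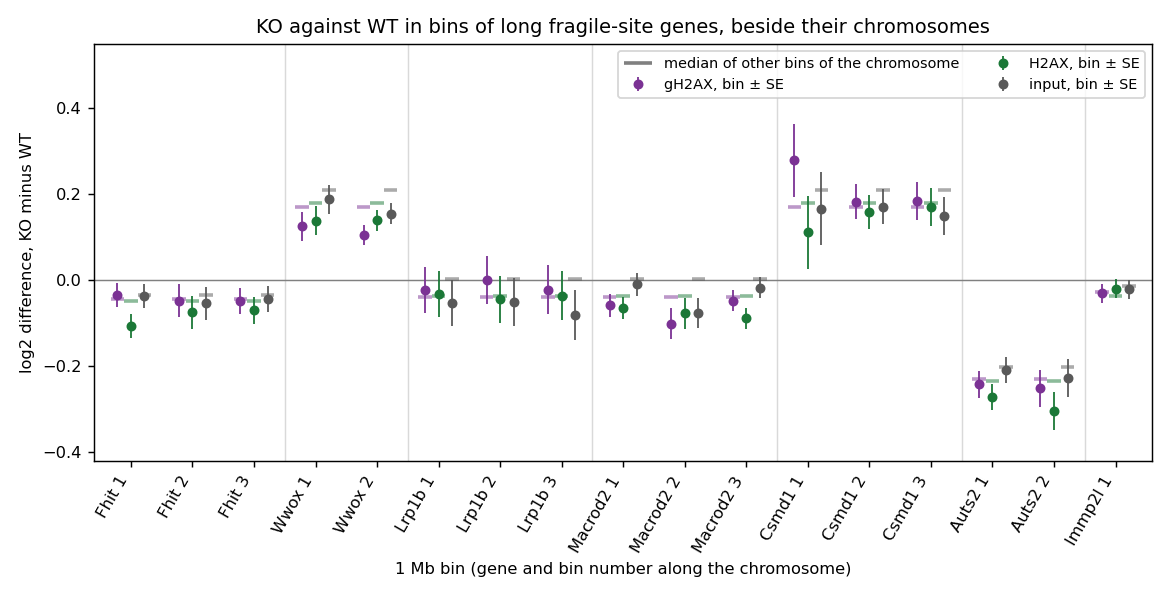
Log2 difference, KO minus WT, of each of the 17 bins in gH2AX, H2AX and input with its standard error (2 libraries against 2), and the median of the other bins of the same chromosome as short lines of the same colour. Wwox and Csmd1 lie above 0 and Auts2 below, as do the medians of chromosome 8 (0.17 to 0.21) and chromosome 5 (-0.20 to -0.23).

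A further contrast set the Xray-named against the NT-named libraries, with KO and WT as the 2 pairs of each assay. In gH2AX most of the fragile-site bins were lower in the Xray-named libraries. Of the 17 bins, 12 were called lower and 3 higher (73.4% of all bins called, 38.3% lower and 35.1% higher), with a median of -0.068 against -0.0078 over all bins. The lower bins were the 3 of Lrp1b, the 3 of Csmd1, the 3 of Macrod2, Fhit bin 2, Auts2 bin 2 and Immp2l. The higher bins were Fhit bin 3, Wwox bin 2 and Auts2 bin 1. What the column names mean for the treatment is not settled by the labels.

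Csmd1 bin 1 changed most. It held 410 CPM in the Xray-named and 504 CPM in the NT-named gH2AX library of KO, and 353 and 401 CPM in WT, a log2 difference of -0.24 (SE 0.029, adjusted p = 0.00238). In H2AX the same bin held 347 and 347 CPM in KO and 327 and 316 CPM in WT. Lrp1b bin 3 held 328 CPM in the Xray-named and 368 CPM in the NT-named gH2AX library of KO, and 335 and 372 CPM in WT. Both genotypes moved by nearly the same amount, and the log2 difference was -0.16 (SE 0.0147, adjusted p = 0.00123). Lrp1b bins 1 and 2 gave -0.14 and -0.15, and at most 5.75% of the other bins of chromosome 2 lay below the 3 bins. Csmd1 bins 2 and 3 gave -0.091 and -0.12, and Macrod2 bin 2 -0.082. On the high side Fhit bin 3 had 0.069 and Auts2 bin 1 0.058, so the bins of one gene took opposite directions in both Fhit and Auts2.

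H2AX gave 0 calls among the 17 bins in this contrast with edgeR (0% of all bins called), although 10 members and 586 of all bins had an unadjusted p under 0.05. DESeq2 called 8 members, with no share of all bins given for it. The H2AX values ran from -0.049 to 0.080. Taken relative to H2AX, in a contrast added after the data had been seen, gH2AX was lower in 9 bins and higher in none (53.2% of all bins called, 27% lower and 26.2% higher), with a median of -0.060. Lrp1b kept -0.096 to -0.11, Csmd1 bin 1 -0.26 and Auts2 bin 2 -0.15. With counts scaled to the autosomal total, this split was 8 lower and 2 higher.

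The same direction was found in other long genes and in gene-poor bins. In gH2AX the 39 bins of the further fragile-site genes had a median of -0.060, with 20 lower and 8 higher, and the 336 bins of other long genes -0.049, with 174 lower and 59 higher. The gene-poor bins had a median of -0.11, with 602 of 744 lower and 18 higher, which is below the median of the 7 genes. The largest changes among further long genes were those of Cntnap5b (-0.38) and Gphn (-0.25). Only 2 pairs of libraries enter each assay. Without the NT-named or the Xray-named gH2AX library of WT, 9 and 8 member bins were called in place of 15, and Wwox bin 2, at 0.018 with all libraries, had -0.0091 without the Xray-named gH2AX library of KO and -0.021 relative to its chromosome.

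**Figure D3:**
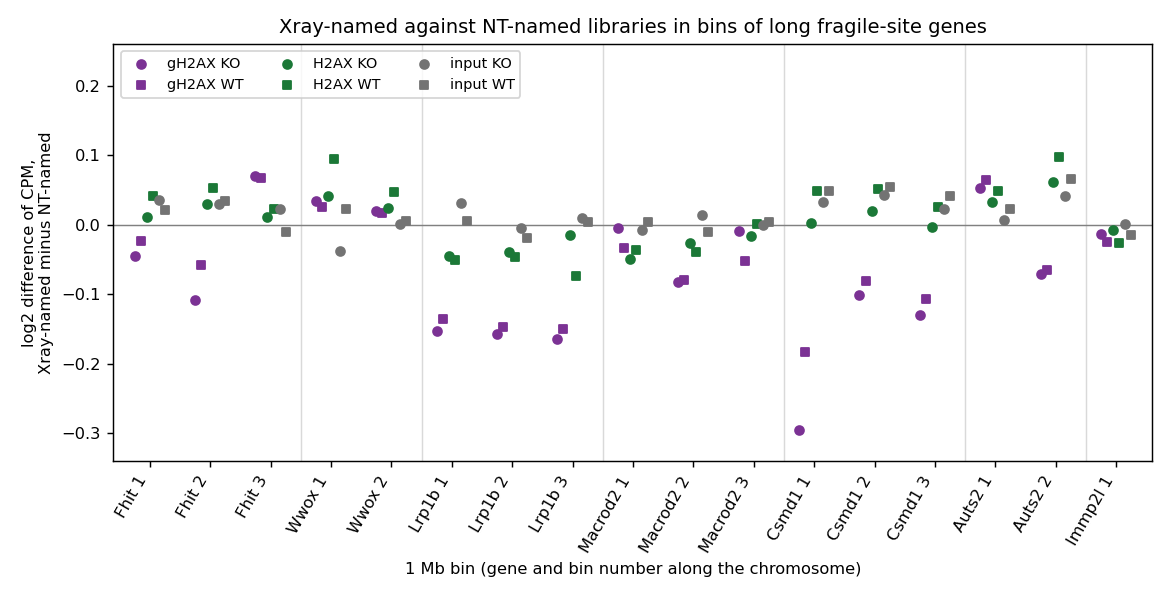
Log2 difference of CPM between the Xray-named and the NT-named library of each group in the 17 bins. gH2AX of KO and WT moves together, down to -0.30 and -0.18 in Csmd1 bin 1 and to between -0.14 and -0.16 in Lrp1b, while H2AX stays between -0.074 and 0.098.

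The clones were compared in the ratio of gH2AX over H2AX. In all 3 clone types gH2AX was called above H2AX over the 3 Lrp1b bins, Macrod2 bin 2, Csmd1 bin 3, Fhit bin 2 and Immp2l, and below it over both Wwox bins and Auts2 bin 1. In KO clones with SIRT7-WT 9 bins were called higher and 3 lower (55.7% of all bins called, 30.6% higher and 25.1% lower). HY clones had 7 higher and 3 lower (59.5%, 31.6% higher and 27.9% lower), and KO clones 9 and 3 (62.4%, 32.6% higher and 29.9% lower). The medians were 0.30, 0.28 and 0.30, against 0.018, 0.013 and -0.0029 over all bins.

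Scaling counts to the autosomal total in place of TMM factors put the median of all bins at 0.15, 0.19 and 0.16 in KO clones with SIRT7-WT, HY clones and KO clones. The members' medians were then 0.44, 0.46 and 0.47, and the split was 10 higher and 2 lower, 11 and 1, and 10 and 2. No called bin changed direction under that scaling.

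Lrp1b had the highest ratios of the 7 genes. Lrp1b bin 3 held 308 and 319 CPM of gH2AX against 185 and 166 CPM of H2AX in KO clones with SIRT7-WT. It held 299 and 370 CPM against 189 and 182 CPM in HY clones, and 320 and 361 CPM against 195 and 166 CPM in KO clones. In each clone type both gH2AX libraries lay far above both H2AX libraries. The log2 ratio was 0.83 (SE 0.135, adjusted p = 0.00179), 0.85 (SE 0.135, adjusted p = 0.000565) and 0.92 (SE 0.135, adjusted p = 0.000433). Lrp1b bins 1 and 2 gave 0.68 to 0.82 over the 3 clone types. In KO clones 94.8% to 99.4% of the other 174 bins of chromosome 2 lay below the 3 Lrp1b bins.

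Macrod2 bin 2 held 386 and 372 CPM of gH2AX against 235 and 216 CPM of H2AX in KO clones with SIRT7-WT. It held 376 and 417 CPM against 240 and 228 CPM in HY clones, and 390 and 415 CPM against 265 and 219 CPM in KO clones. The ratios were 0.75, 0.76 and 0.73, each with an SE of 0.128, whereas the flanking bins, which Macrod2 shares with other genes, had 0.27 to 0.30 in bin 1 and 0.073 to 0.11 in bin 3. Macrod2 bin 1 was also called higher except in HY clones, and bin 3 was called in no clone type. Csmd1 showed a gradient along the gene, with 0.019 to 0.062 in bin 1, 0.24 to 0.31 in bin 2 and 0.45 to 0.52 in bin 3, and only bin 3 was called. Immp2l had 0.39, 0.43 and 0.37, called in each clone type. Fhit bin 2 was called at 0.35 to 0.42, and Fhit bin 1, at 0.28 to 0.36, was called except in HY clones (adjusted p = 0.0688).

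Wwox stood lowest. Wwox bin 1 held 374 and 351 CPM of gH2AX against 557 and 520 CPM of H2AX in KO clones with SIRT7-WT. It held 399 and 300 CPM against 520 and 494 CPM in HY clones, and 395 and 342 CPM against 556 and 543 CPM in KO clones. The ratios were -0.57 (SE 0.138, adjusted p = 0.00406), -0.53 (SE 0.138, adjusted p = 0.00492) and -0.58 (SE 0.138, adjusted p = 0.00268). Wwox bin 2 gave -0.33 to -0.41 and Auts2 bin 1 -0.44 in all 3, all called. Auts2 bin 2 had -0.034 to -0.092 and was not called. The chromosome 8 and 5 medians lay at -0.070 to -0.16 over the clone types.

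Inputs of the clones are not used here because no labelled sample matches them, so the ratio cannot be split into a part from each antibody relative to DNA. Levels of WT replicate 1 and 2 in the same table can be set beside those of the clones, with normalization factors computed separately for clones and WT. Over the 3 Lrp1b bins the 6 H2AX libraries of the clones held 166 to 210 CPM, against 290 to 398 CPM in the 2 WT libraries. Their gH2AX libraries held 289 to 370 CPM, against 271 to 374 CPM in WT. For Wwox bin 1 the clones held 494 to 557 CPM of H2AX against 337 to 398 CPM in WT, and 300 to 399 CPM of gH2AX against 323 to 377 CPM in WT. The H2AX levels of clones and WT did not overlap in either gene, and the gH2AX levels did. Lrp1b and Wwox had the highest and the lowest ratios in the clones. In Csmd1 bin 1 and Fhit bin 3 the H2AX levels of clones and WT did overlap. Overlap was not counted over all bins.

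The clone types did not differ from each other in this ratio past the threshold. KO clones with SIRT7-WT against KO clones gave 0 calls among the 17 bins with both edgeR and DESeq2, as did HY clones against KO clones (0% of all bins called in each), and no member had an unadjusted p under 0.05. The differences ran from -0.12 to 0.078 and from -0.14 to 0.054. Standard errors were 0.159 to 0.194, larger than each of these differences. The fit did not pair KO clones with SIRT7-WT to KO clones by the clone numbers that they share. The largest were in Lrp1b bin 1, at -0.12 (SE 0.191) with SIRT7-WT and -0.14 (SE 0.191) in HY clones.

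The high ratios were shared by other long genes and were larger in gene-poor bins. The 39 bins of the further fragile-site genes had medians of 0.37, 0.33 and 0.35 in KO clones with SIRT7-WT, HY clones and KO clones, with 20 higher in each and 4, 4 and 5 lower. The 336 bins of other long genes had medians of 0.20, 0.21 and 0.22. The 744 gene-poor bins had 0.57, 0.57 and 0.64, with 543, 545 and 559 higher. The medians of the 17 bins thus lay between those of all bins and those of the other gene-poor bins. Skint5 (1.24 to 1.37 over the 3 clone types) and Dmd (1.05 to 1.14) had the largest ratios among the further long genes. Single libraries changed the number of calls. Without replicate 2 of gH2AX there were 6 calls in KO clones with SIRT7-WT and 6 in KO clones. Without replicate 1 or 2 of H2AX there were 7 and 6 in KO clones with SIRT7-WT, and 7 in KO clones without replicate 2.

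**Figure D4:**
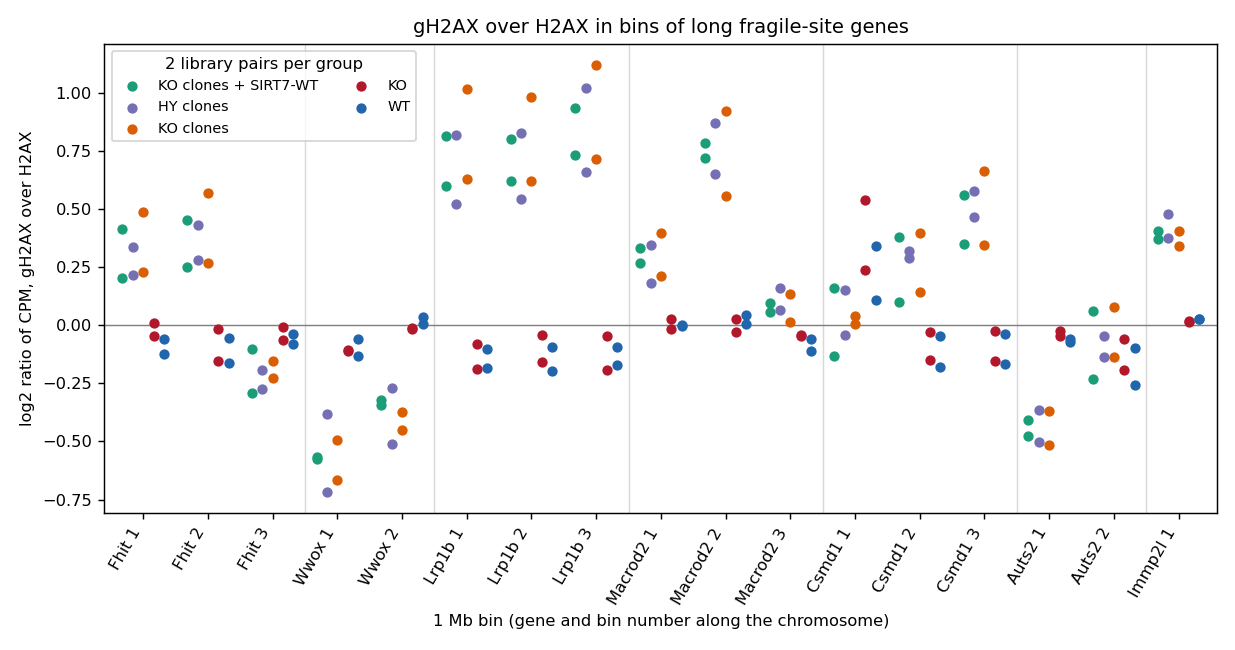
Log2 ratio of CPM of gH2AX over H2AX in the 17 bins, with each point a library pair (same replicate number in the clones, same column name in KO and WT). Lrp1b lies between 0.52 and 1.12 in the clones and between -0.19 and -0.04 in KO and WT cells, and Wwox bin 1 between -0.38 and -0.72 in the clones.

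The hybrid background allowed reads to be assigned to 2 parental genomes, which the files call genome1 and genome2 without stating which strain is which. Only WT replicates 1 and 2 of the second table could be matched to samples for these columns. In input, genome1 took 46.7% to 67.5% of the assigned reads in the 14 bins outside Lrp1b, and less in each Lrp1b bin. In Lrp1b bin 2, genome1 took 13.1% of assigned reads in replicate 1 (95% exact binomial interval 12.6 to 13.6, 2302 genome1 and 15275 genome2 reads) and 12.7% in replicate 2. Lrp1b bins 1 and 3 had 33.1% and 33.4%, and 35.4% and 35.9%. The median of the other bins of chromosome 2 was 59.6% and 59.8%. Only 18 of 2577 tested bins had a genome1 share as low as Lrp1b bin 2 in each input replicate, that bin included. Such intervals cover counting error only.

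Lrp1b was also the gene with the fewest assigned reads. In its 3 bins 33.8%, 28.2% and 33.1% of input reads were assigned to either genome in replicate 1 and 37.2%, 30.9% and 37.1% in replicate 2, against chromosome medians of 56.4% and 61%. The other 14 bins had 59.2% to 76% assigned. The part of this low assignment in the genome1 share was not tested. The log2 ratio of genome1 over genome2 in input was -1.22, -2.97 and -1.06 in the 3 Lrp1b bins. It was 0.80 in Fhit bin 1 and 0.56 in Fhit bin 2, where the genome1 share was 66.3% to 67.5% and 62.5% to 63.6%. All 17 bins passed the threshold in this input contrast, 10 higher and 7 lower, as did 98% of all bins, so a call there says little about the members.

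The marks were then compared with input within the same genomes. In gH2AX relative to input, genome1 over genome2 was called in 2 of the 17 bins, both higher (2.52% of all bins called, 1.09% higher). Macrod2 bin 2 had a genome1 share of 59.2% and 58.1% in gH2AX against 56.4% and 56.5% in input, a log2 difference of 0.11 (SE 0.0281, adjusted p = 0.00988). Immp2l had 49.6% and 48.3% in gH2AX against 46.7% and 46.7% in input, a log2 difference of 0.11 (SE 0.0302, adjusted p = 0.0228). In both genes both gH2AX libraries lay above both input libraries.

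In H2AX relative to input, the 3 Macrod2 bins were called, all higher for genome1 (9.35% of all bins called, 3.03% higher). Macrod2 bin 2 had 63.5% and 61.5% in H2AX against 56.4% and 56.5% in input, a log2 difference of 0.33 (SE 0.0289, adjusted p = 1.07e-15). Bins 1 and 3 gave 0.12 (adjusted p = 0.002) and 0.096 (adjusted p = 0.0116), and all H2AX libraries lay above the input libraries in the 3 bins. Of the other 174 bins of chromosome 2, 98.3% lay below Macrod2 bin 2. Lrp1b bin 2, with its low genome1 share, had -0.0079 in H2AX and 0.022 in gH2AX relative to input, with standard errors of 0.0533 and 0.0519, and neither was called. The 2 gH2AX calls were lost without replicate 1 of gH2AX, without either replicate of input, and with no filter on low counts. In H2AX 1 call was left without either input replicate.

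**Figure D5:**
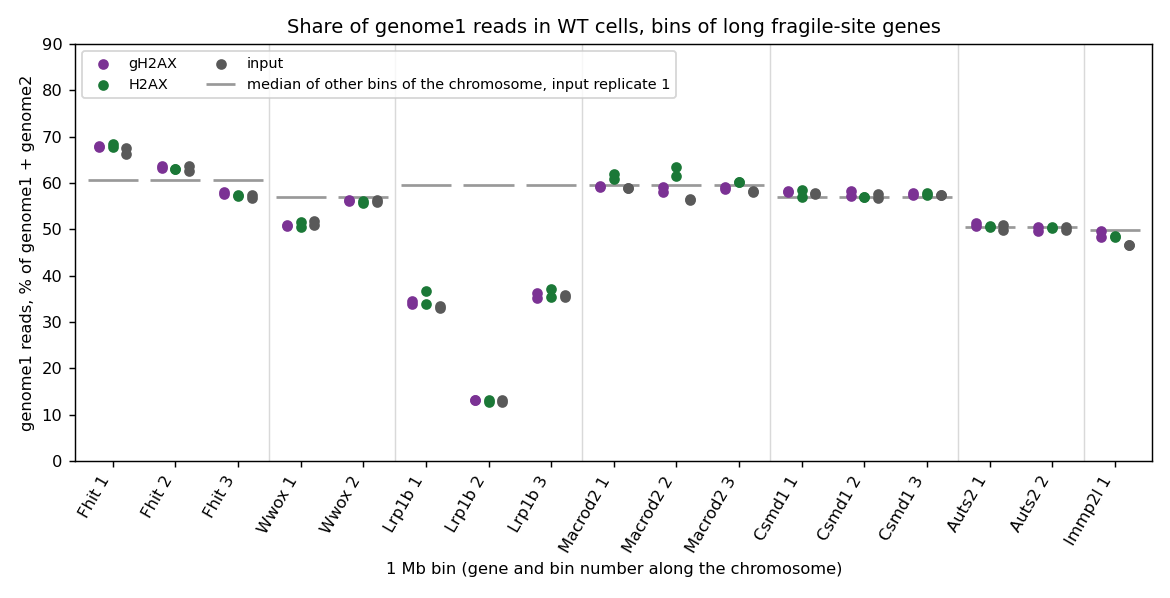
Share of genome1 among reads assigned to either parental genome in WT replicates 1 and 2, as percent of genome1 plus genome2 reads, for gH2AX, H2AX and input in the 17 bins, with the median of the other bins of the chromosome in input replicate 1. Lrp1b bin 2 lies near 13% in all 3 assays, and Macrod2 bin 2 has a higher share in H2AX (63.5% and 61.5%) than in input (56.4% and 56.5%).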

How the data were processed

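The files hold raw read counts, unscaled, in 1 Mb bins of mm10, as the authors deposited them, with further counts per parental genome. Tools named in the submitters' processing notes are MACS2 2.2.7.1, deepTools 2.4.2, SAMtools 0.1.19, Bowtie2 2.2.9, Trimmomatic 0.36 and FastQC 0.11.3. Their settings and the rule for parental assignment are not given there. Columns were matched to samples or groups by name. Of 144 columns, 42 were used and 102 were not, among them the clone inputs, which match no labelled sample.

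Gene positions came from RefSeq, in which all 7 genes were found. Counts were tested with edgeR 4.0.16 in R 4.3.3 (quasi-likelihood F test, two-sided, TMM factors, 1 term for each group, with the spread estimated over the whole table). Bins needed a mean count of 100 or more. P-values were adjusted over all such bins by Benjamini-Hochberg, with a threshold of 0.05. CPM used TMM library sizes. The contrast by column name had 3 residual degrees of freedom, as had the parental contrasts. Alternatives were DESeq2 1.42.0 (test, and size factors alone), the autosomal total, no filter, the compared groups alone, a replicate block, an offset per chromosome, and leaving out each library. Shares of all bins are given for the main edgeR fits only, so member counts under an alternative have no share beside them. The procedure was also run on simulated counts with the same spread in every bin of a table. These held no effect of column name or clone, so that run does not bear on such effects.

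The 7 genes and the other lists were chosen with earlier results of these data known. The text names the bins of the 7 genes and, from the other long genes, at most the 2 bins with the largest called change. The contrast of gH2AX over H2AX by column name, the gene-poor bins, the third WT library and the levels of clones beside WT were added after the data had been seen. Nothing in the labels says that replicates were separate cultures, so p-values measure only how far these samples spread, and that spread may be technical.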

Additional observations from a re-analysis of the deposited data

Results flagged for a closer look

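In 7 of the 17 bins, gH2AX over H2AX was above 0 in all 6 clone library pairs and below 0 in all 4 pairs of KO and WT cells. This difference between the clones and the KO and WT cells was not tested, since the tables were normalized separately. The same count was not made over all bins, so it has no share beside it. The 744 gene-poor bins also had medians below 0 in KO (-0.046) and WT (-0.085). Theirs were above 0 in KO clones with SIRT7-WT (0.57), HY clones (0.57) and KO clones (0.64), so the pattern is not particular to the 7 genes. The median log2 ratio over the clone pairs was 0.72 in Lrp1b bin 1 (0.52 to 1.02), against -0.19 to -0.08 in KO and WT cells. It was 0.71 in Lrp1b bin 2 (0.54 to 0.98), against -0.19 to -0.04, and 0.84 in Lrp1b bin 3 (0.66 to 1.12), against -0.19 to -0.04.

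Csmd1 bin 3 had 0.51 in the clones (0.35 to 0.66), against -0.17 to -0.03 in KO and WT cells, and Csmd1 bin 2 had 0.3 (0.1 to 0.4), against -0.18 to -0.03. Fhit bin 2 had 0.36 in the clones (0.25 to 0.57), against -0.16 to -0.01. Macrod2 bin 3 had 0.08 in the clones (0.02 to 0.16), against -0.11 to -0.04, and was not called in any clone type.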

How the results depend on the processing

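Of 1483 recomputed results for called member bins, 1260 kept their direction and side of the threshold, 209 no longer passed it and 14 changed sign. Of the sign changes, 11 came with the offset per chromosome, 2 with the autosomal total and 1 with a library left out. Of the 209 that no longer passed, 140 came with a library left out. The cause was not tested. With 2 libraries per group, single libraries moved many counts.

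With an offset per chromosome, KO against WT gave 0 calls in gH2AX, H2AX and input. Wwox bins 1 and 2 then had -0.040 and -0.060 in gH2AX, -0.038 and -0.037 in H2AX, and -0.037 and -0.070 in input. Csmd1 bins 2 and 3 had -0.017 and -0.0047 in H2AX and -0.054 and -0.075 in input. The same offset gave 0 calls for gH2AX over H2AX in KO and in WT, and -0.021 for Wwox bin 2 in the gH2AX contrast by name. Leaving out each library, that bin ran from -0.0091 (without the Xray-named gH2AX KO library) to 0.020. Scaled to the autosomal total, Macrod2 bin 1 had 0.0046 and Immp2l 0.0048 in that contrast, input KO against WT gave 10 calls, and gH2AX over H2AX in WT gave 4.

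With the compared groups alone, calls numbered 6 for gH2AX and 15 for H2AX over input in KO, 0 for gH2AX over H2AX in KO, 4 for gH2AX and 13 for input in KO against WT, and 6 for input relative to the chromosome. DESeq2 called 3 and 9 bins for gH2AX over H2AX in KO and WT, 2 for input relative to the chromosome and 8 for H2AX by name, and its size factors in edgeR gave 3 there. With no filter, gH2AX by parental genome gave 0 calls.

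Like-named gH2AX libraries of KO and WT deviated together (r = 0.959). The labels tie KO clones with SIRT7-WT to KO clones by clone number, but the columns carry replicate numbers, so which column is which clone is not shown. Their same-numbered columns deviated together in gH2AX (r = 0.854) and H2AX (r = 0.936). With 2 libraries per group these correlations do not settle a pairing. For KO against WT the replicate block was a term for the column name in each assay. Calls then numbered 13, 14 and 15 in gH2AX, H2AX and input, and 2, 3 and 6 relative to the chromosome. No share of all bins is given with that term, so these counts cannot be set against a background. Without it, 60.1%, 63.3% and 57.5% of all bins were called, and 6%, 5.77% and 7.51% relative to the chromosome. For gH2AX over H2AX the replicate block was a term for the library name in each genotype or clone type, shared by its assays. Calls then numbered 0 in KO and in WT, 14 in each clone type, and 0 between clone types, again with no share given. That term does not pair KO clones with SIRT7-WT to KO clones by clone number.

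Leaving out each library gave 5 to 12 calls for gH2AX over input in KO and 9 to 13 in WT, 5 to 8 for H2AX over input in KO and 7 to 9 in WT, and 0 to 7 and 0 to 9 for gH2AX over H2AX in KO and WT. KO against WT gave 7 to 8 in gH2AX, 6 to 7 in H2AX and 5 to 5 in input, and 0 to 1 for gH2AX relative to the chromosome. By name, gH2AX gave 8 to 13 and gH2AX over H2AX 6 to 10. The clones gave 6 to 9 (KO with SIRT7-WT), 7 to 12 (HY) and 6 to 11 (KO). Parental contrasts gave 0 to 2 in gH2AX, 1 to 3 in H2AX and 17 to 17 in input. Results with 0 calls otherwise stayed at 0 to 0.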
